A study of Bos taurus with 34 samples.

Results

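The carriers described here are the facilitated sugar transporters of the SLC2A family, the sodium-coupled transporters of the SLC5A family and the monocarboxylate transporters of the SLC16A family, read as transcripts in the lining of the cow's oviduct and uterus. They were chosen by symbol, with the annotated feature of highest mean count standing for each gene. Of the 21284 genes matched to a feature of the count table, 32 were such carriers, 10 in SLC2A, 11 in SLC5A and 11 in SLC16A. The same symbols also take in SLC2A4RG, a transcriptional regulator that carries no sugar, which is kept apart. The tissue came from 5 adult Holstein heifers that had not calved, brought into synchrony with a 5-day CIDR-Synch treatment and slaughtered on day 2 after ovulation. All groups shared that treatment and that day, and none was an untreated control. Sites are named by side relative to ovulation: the ipsilateral ampulla and the contralateral ampulla (5 libraries each), the ipsilateral upper uterine horn (4), the contralateral upper uterine horn (5), the ipsilateral mid uterine horn and the contralateral mid uterine horn (5 each), and the uterine body (5). Every heifer gave every site, except that the ipsilateral upper uterine horn of heifer 11110 was not analysed here. The endometrium below is the mean of upper horn, mid horn and uterine body, each weighted equally.

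Glucose crosses epithelial membranes either down its gradient through SLC2A carriers, known as GLUTs, or against it through SLC5A carriers, known as SGLTs, which are driven by the sodium gradient. Lactate, pyruvate and related acids cross with protons through the core members of the SLC16A family, known as MCTs, and with sodium through SLC5A8. These routes stand between the blood, the epithelium and the tract fluid, in which the early embryo takes up pyruvate and lactate first and more glucose as it develops.

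Libraries held 11619486 to 30412782 counts. Levels are CPM, counts relative to the library total after TMM scaling. Means ± SD are over heifers, each heifer entering with the average of its libraries from a region. Tests were edgeR quasi-likelihood F tests over 17241 features, with group and heifer as terms, and a gene was called at a Benjamini-Hochberg adjusted p under 0.05. Log2 fold changes are given ± SE, taken as the absolute log2 fold change divided by the square root of the F statistic. Counting was by transcript accession without transcript length, so levels compare libraries for 1 gene and not genes with each other. The contralateral mid uterine horn library of heifer 10882 went partly against its label. It held KRT5, a keratin of basal epithelial cells, at 454 CPM, where that heifer's remaining 4 uterine libraries reached 1.59 CPM at most and its ampulla libraries averaged 960 CPM. Oviduct secretory markers summed to 835 CPM in it. The contralateral ampulla of heifer 11070 and the contralateral upper uterine horn of heifer 11033 had the fewest features with a count, 15773 and 16049. These are the 3 doubted libraries named below.

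Detection is given beside the number of annotated transcripts, whose part in it was not tested. Of the 38 carriers in the gene table, 23 passed the filter on low counts, 9 in SLC2A, 6 in SLC5A and 8 in SLC16A. Another 9 had a feature but too few counts, and 6 had no feature (SLC2A2, SLC2A6, SLC5A2, SLC16A4, SLC16A11 and SLC16A12). Among the 23 tested carriers, 15 have 1 annotated transcript. Among the 9 that were not tested, 7 have at least 2, and so have all 6 without a feature. The total over all libraries had a median of 3720 counts among tested carriers with 1 transcript and of 616 among those with more. Single genes went the other way. SLC5A3 and SLC2A3, with 2 transcripts each, had 56353 and 49592 counts, and SLC5A4 and SLC5A12, with 1 each, had 16 and 9. The low values of SLC16A1 and SLC16A3, proton-coupled lactate and pyruvate carriers with 4 and 7 annotated transcripts, are counts of 1 feature each. They are not a measure of the gene's whole output. The same holds for called carriers with several annotated transcripts, among them SLC16A14 with 6, SLC16A5 with 7 and SLC2A11 with 9.

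How the carriers of the oviduct lining differ from those of the uterus was asked by setting the ampulla against the endometrium. In the ampulla, the sodium-glucose cotransporter SLC5A1, the facilitated glucose carriers SLC2A1 and SLC2A8 and the aromatic amino acid carrier SLC16A10 stood higher, SLC5A1 by 46.8-fold, SLC2A1 by 1.6-fold and SLC16A10 by 4.55-fold. By contrast, the high-affinity glucose carrier SLC2A3, the insulin-responsive carrier SLC2A4 and SLC16A14 stood lower, SLC2A3 by 31.6-fold and SLC2A4 by 4.86-fold. Of the 23 tested carriers, 7 rose and 7 fell, and 9 did not pass the test. Over all tested features 64.9% were called, with 29.4% higher and 35.6% lower in the ampulla, so the share of carriers called was near that of the table as a whole. The carriers had a median log2 fold change of -0.07, within a range of -7.48 to 5.55, and all features had a median of -0.18. In SLC2A 3 of 9 rose and 2 fell, and in SLC5A 2 of 6 rose and 0 fell. In SLC16A 2 of 8 rose and 5 fell. Lack of overlap between the libraries of the regions is named below for single carriers. The share of all features without such overlap is not given here, so it cannot be weighed against that share.

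**Figure D1:**
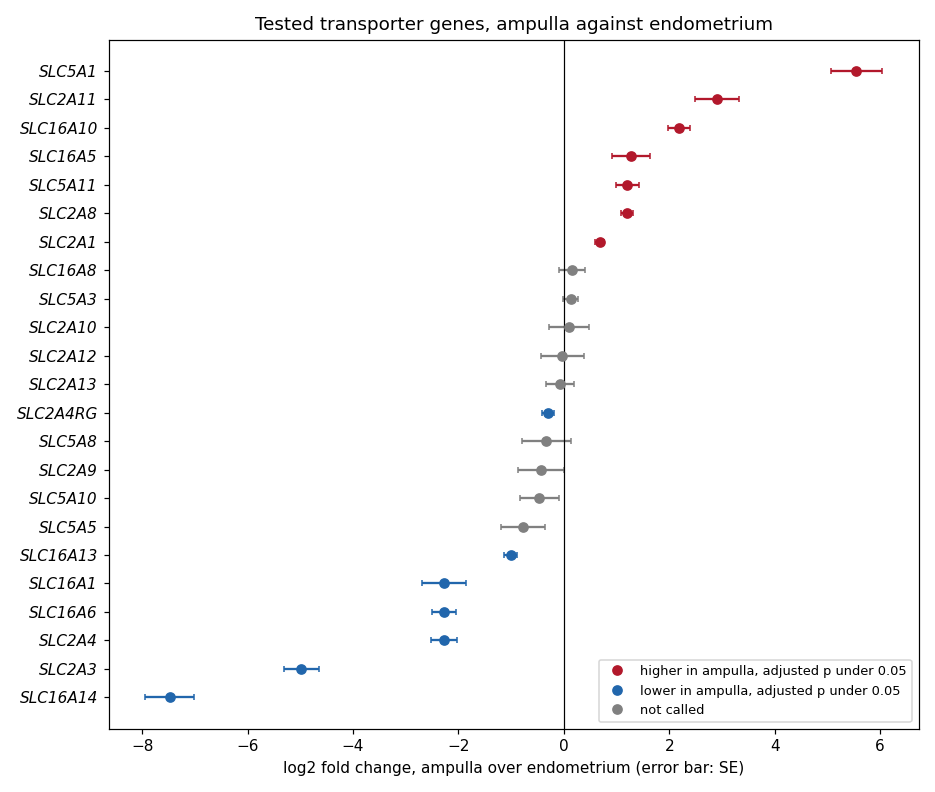
Log2 fold change of tested genes, ampulla over endometrium, with 1 point per gene and its SE as the bar (n = 5 heifers). The points run from SLC5A1 at 5.55 to SLC16A14 at -7.48, and the 9 carriers that did not pass the test lie between -0.77 and 0.15.

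What else differed between the regions is given here once, for all of these results. The summed level of the 7 stromal markers with a feature was 38 to 101 CPM in ampulla libraries and 33783 to 78763 CPM in endometrium libraries, and DCN, LUM, PDGFRA and PDGFRB were at 0 counts in the ampulla. Endothelial markers summed to 0.131 to 1.27 CPM in the ampulla, against 368 to 953 CPM in the endometrium, with PECAM1, CDH5, CLDN5 and VWF at 0 in the ampulla. Smooth muscle markers summed to 8.01 to 21 CPM in the ampulla, against 224 to 3572 CPM in the endometrium, with ACTA2, MYH11 and TAGLN at 0 in the ampulla. Leukocyte markers summed to 15.9 to 44.9 CPM in the ampulla, against 99.7 to 343 CPM in the endometrium, with PTPRC at 0 in the ampulla. Several of the genes at 0 in the ampulla were near the floor in the endometrium too, so their zeros show little contrast. PECAM1, PTPRC and MYH11 were also at 0 counts in the contralateral upper and contralateral mid uterine horn. ACTA2, TAGLN, VWF and PDGFRA averaged 0.36, 0.649, 0.382 and 0.661 CPM in the endometrium. General epithelial markers summed to 5976 to 7945 CPM in the ampulla, against 978 to 4403 CPM in the endometrium. In the test, 6 of 6 stromal markers, 5 of 5 endothelial, 5 of 5 smooth muscle and 5 of 5 leukocyte markers fell in the ampulla. There 8 of 8 ciliated markers, 4 of 4 oviduct secretory markers and 6 of 8 general epithelial markers rose. Of the remaining epithelial markers CLDN4, a tight junction protein, fell, with a log2 fold change of -1.59 (adjusted p = 2.19e-07), and CDH1, an adhesion protein, had -0.67 and did not pass. The part of these markers in the carriers' differences was not tested, and in such bulk samples fewer cells of a type and less RNA per cell cannot be told apart.

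Among the facilitated glucose carriers, SLC2A1 encodes GLUT1, which serves basal glucose uptake in most tissues. It had 318, 293, 299, 256 and 217 CPM in the ipsilateral ampulla of heifers 10872, 10882, 11033, 11070 and 11110, and 296, 331, 225, 263 and 232 CPM in the contralateral ampulla. Endometrium libraries ran from 124 CPM through a median of 170 to 214 CPM. Every ampulla library lay above every endometrium library. The mean was 273 ± 36.5 CPM in the ampulla, against 172 ± 16.2 CPM in the endometrium (n = 5 heifers), with a log2 fold change of 0.68 ± 0.09 (adjusted p = 1.52e-07). SLC2A8 encodes GLUT8, which resides mostly in intracellular membranes. Its level was 51.8 ± 5.87 CPM in the ampulla, against 22.5 ± 3.5 CPM in the endometrium, higher by 1.20 ± 0.12 on the log2 scale (adjusted p = 5.91e-10, 5 of 5 heifers). Ampulla libraries held 38.1 to 67.2 CPM of SLC2A8, and 1 endometrium library overlapped them. That was the contralateral mid uterine horn of heifer 10882, at 43.4 CPM, and the next endometrium library stood at 29.9 CPM. Without that library the log2 fold change was 1.23, and without the 3 doubted ones 1.19.

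SLC2A11, a carrier of glucose and fructose, had few counts at both sites. It averaged 1.05 ± 0.531 CPM in the ampulla, against 0.142 ± 0.052 CPM in the endometrium, with a log2 fold change of 2.91 ± 0.42 (adjusted p = 3.67e-07, 5 of 5 heifers). It was 3.22 without the library with oviduct transcripts, which held 0.648 CPM, the highest value in the endometrium.

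SLC2A3 encodes GLUT3, a high-affinity glucose carrier best known from neurons, leukocytes and placenta. Ampulla libraries held 0.721 to 4.33 CPM, with a median of 2.37. Endometrium libraries held 27.3 to 372 CPM, with a median of 56.6, so the regions did not overlap. Its log2 fold change was -4.98 ± 0.33 (adjusted p = 2.87e-14). Within the endometrium SLC2A3 varied by animal and by site. In the ipsilateral upper uterine horn it was at 35.6, 372, 27.3 and 267 CPM in heifers 10872, 10882, 11033 and 11070. In the uterine body it was at 32.1, 204, 51.5, 105 and 107 CPM in heifers 10872, 10882, 11033, 11070 and 11110. Heifers 10872 and 11033 stayed at or below 51.5 CPM in all their uterine libraries, and heifers 10882 and 11070 passed 100 CPM in the ipsilateral upper horn, the ipsilateral mid horn and the body. In the ipsilateral mid horn it was at 38.9, 145, 43.2, 160 and 61.7 CPM in the same 5 heifers. The contralateral mid horn held 39.5, 80.2, 28.4, 73.9 and 115 CPM in that order. The contralateral upper horn held 31.2, 36.5, 42.3, 34.5 and 66.7 CPM. There heifers 10882 and 11070 did not stand above heifer 11033. Leukocyte markers summed to 239, 221, 247 and 170 CPM in the 4 ipsilateral upper horn libraries, heifers in the order given. They summed to 214, 262, 281, 289 and 213 CPM in the ipsilateral mid horn and to 265, 161, 142, 277 and 99.7 CPM in the body. Their part in the variation of SLC2A3 was not tested.

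SLC2A4 encodes GLUT4, the insulin-responsive carrier of muscle and fat. Its level was 3.23 ± 1.91 CPM in the ampulla, against 12.4 ± 2.18 CPM in the endometrium. The log2 fold change was -2.28 ± 0.25 (adjusted p = 2.34e-09, 5 of 5 heifers). Ampulla libraries ran from 0.959 through a median of 1.68 to 9.78 CPM, and endometrium libraries from 6.31 through 11.5 to 17.9 CPM. The 3 ampulla libraries that reached into the endometrial range were ipsilateral, from heifers 10872, 10882 and 11033. SLC2A4RG, the regulator of SLC2A4 transcription set apart above, stood at 87.3 ± 10.1 CPM in the ampulla, against 108 ± 9.57 CPM in the endometrium, with a log2 fold change of -0.30 ± 0.11 (adjusted p = 0.025). That call was lost in 3 of 12 alternative analyses.

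The other 4 tested SLC2A carriers did not pass the test between the regions. SLC2A10 and SLC2A12, both distant glucose carriers of the family, had log2 fold changes of 0.10 ± 0.38 and -0.03 ± 0.41. SLC2A13, a proton-coupled carrier of myo-inositol, had -0.07 ± 0.27. SLC2A9, a urate carrier, had -0.43 ± 0.44, with 0.321 ± 0.279 CPM in the ampulla, against 0.405 ± 0.317 CPM in the endometrium. SLC2A5, the fructose carrier, had 4 counts over all libraries.

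**Figure D2:**
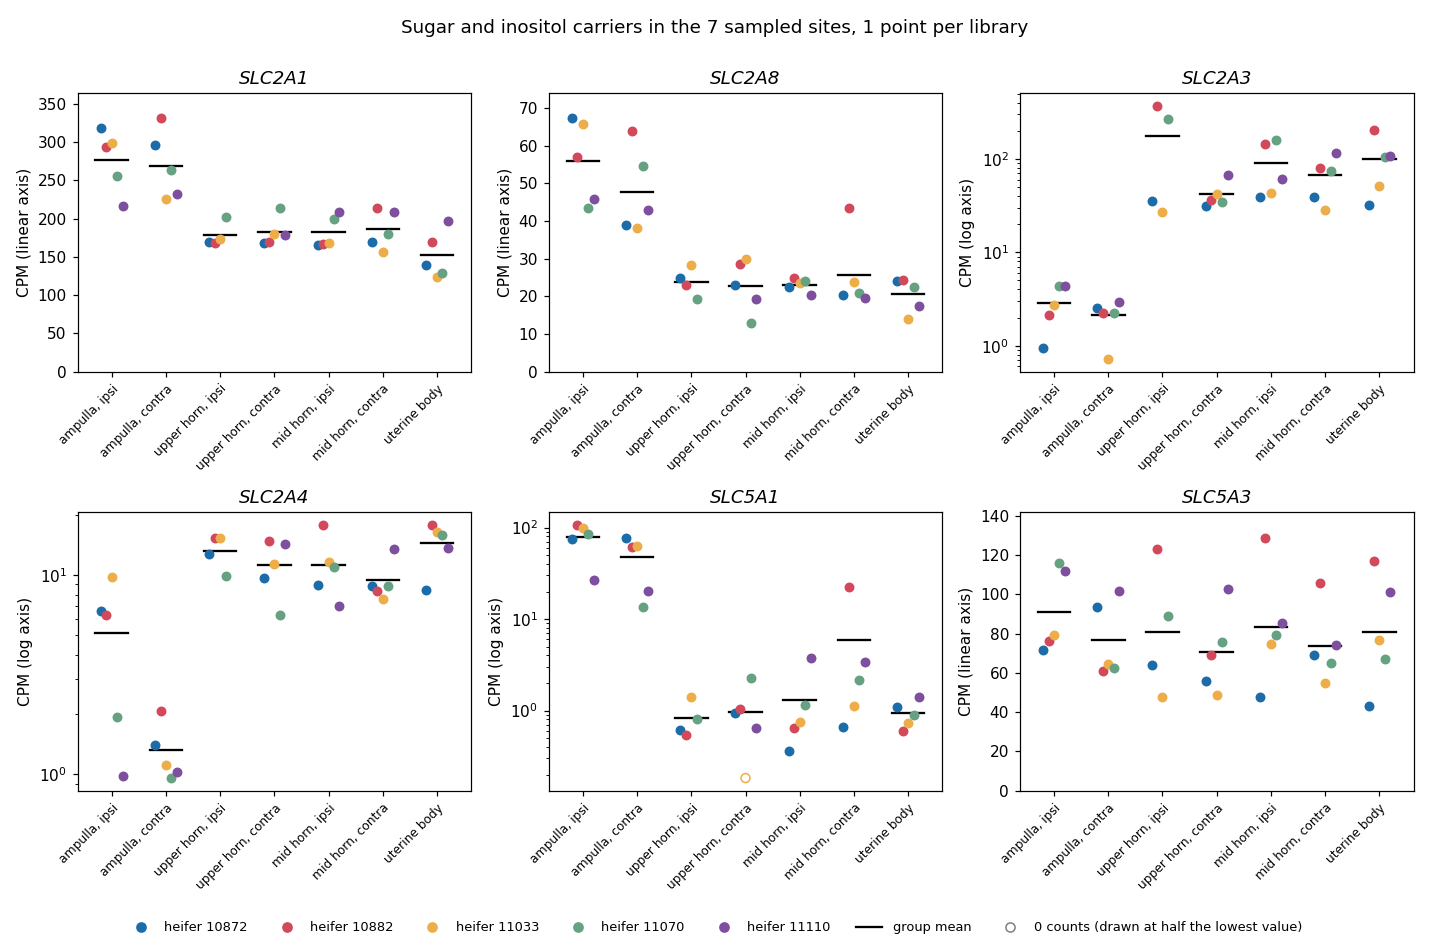
Level in CPM of 6 sugar and inositol carriers in the 7 sampled sites, with 1 point per library coloured by heifer and the bar at the group mean; axes are logarithmic or linear as labelled. SLC5A1 is at 13.4 to 107 CPM in the ampulla, above every uterine library but the contralateral mid horn of heifer 10882 at 22.3 CPM, and SLC2A3 in the ampulla lies below all uterine libraries at 0.721 to 4.33 CPM.

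Among the sodium-coupled carriers, SLC5A1 had the highest fold change of the tested carriers. It encodes SGLT1, which concentrates glucose and galactose across the intestinal brush border. In the ipsilateral ampulla it was at 74.3, 107, 99.9, 85.2 and 26.7 CPM in heifers 10872, 10882, 11033, 11070 and 11110. In the contralateral ampulla it was at 77.1, 61.6, 62.9, 13.4 and 20.4 CPM in the same order. Endometrium libraries ran from 0 through a median of 0.912 to 22.3 CPM. The highest of these was again the contralateral mid uterine horn of heifer 10882, and every other endometrium library lay at or below 3.71 CPM. The log2 fold change was 5.55 ± 0.48 (adjusted p = 4.09e-11), with 62.9 ± 26 CPM in the ampulla, against 1.82 ± 1.45 CPM in the endometrium. Without that 1 library the log2 fold change was 5.89 (adjusted p = 3.01e-14), and without the 3 doubted libraries it was 5.99.

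Heifer 11110 was low in SLC5A1 on both sides of the ampulla, and heifer 11070 was low on the contralateral side alone, in a library with few features. SLC5A4, annotated next to SLC5A1 in the gene table of assembly ARS-UCD2.0, is a glucose sensor in humans. It failed the filter, with 11 counts in 5 of 10 ampulla libraries and 5 counts in 3 of 24 endometrium libraries. The ratio of its count rates was 6.55, with an exact interval of 2.1 to 24.1 at 95% that covers counting error only.

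SLC5A3 encodes SMIT1, a carrier of myo-inositol. It had 83.8 ± 15.4 CPM in the ampulla, against 79.2 ± 23 CPM in the endometrium, with a log2 fold change of 0.13 ± 0.14 that did not pass the test (adjusted p = 0.395). SLC5A11 encodes SMIT2, a second inositol carrier, and rose by 1.20 ± 0.22 on the log2 scale (adjusted p = 1.79e-05, 5 of 5 heifers). It averaged 2.04 ± 0.499 CPM in the ampulla, against 0.918 ± 0.199 CPM in the endometrium. The monocarboxylate carrier SLC5A8, which takes up lactate and pyruvate with sodium, had a log2 fold change of -0.33 ± 0.47, the iodide carrier SLC5A5 one of -0.77 ± 0.42 and SLC5A10, a kidney carrier of mannose and fructose, one of -0.47 ± 0.37. None of these 3 passed the test. A further 4 SLC5A carriers were counted too rarely to test. SLC5A6, a vitamin carrier, had 4 counts in all, SLC5A7, the choline carrier, had 21, SLC5A9, a mannose carrier, had 4, and SLC5A12, a second sodium-coupled lactate carrier, had 9.

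Among the SLC16A carriers, those that move lactate and pyruvate were few in counts. SLC16A1 encodes MCT1, the general lactate and pyruvate carrier. It averaged 0.191 ± 0.137 CPM in the ampulla, against 0.928 ± 0.353 CPM in the endometrium, with a log2 fold change of -2.28 ± 0.42 (adjusted p = 1.74e-05, lower in 5 of 5 heifers). Its feature had 32 counts over 8 of 10 ampulla libraries and 471 over 24 of 24 endometrium libraries. SLC16A8, which encodes the lactate carrier MCT3 of the retinal pigment epithelium, did not pass the test, at 0.15 ± 0.25. SLC16A3, the lactate-exporting MCT4 of glycolytic cells, had 2 counts, and SLC16A7, the high-affinity pyruvate carrier MCT2, had 24. At such counts these last carriers could not be tested.

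Other SLC16A carriers move other substrates or have none firmly established. SLC16A10, which carries aromatic amino acids, ran opposite to SLC16A1, with 3.69 to 15 CPM in ampulla libraries and 0.795 to 3.34 CPM in endometrium libraries. It rose by 2.19 ± 0.21 on the log2 scale (adjusted p = 1.72e-10, 5 of 5 heifers), with no overlap. SLC16A13, whose substrate is less firmly established, had 15 ± 3.34 CPM in the ampulla, against 29.9 ± 3.17 CPM in the endometrium, with a log2 fold change of -1.01 ± 0.12 (adjusted p = 1.92e-08). SLC16A6, a carrier of the ketone body beta-hydroxybutyrate in zebrafish liver, had 0.362 to 0.837 CPM in ampulla libraries and 1.16 to 6.67 CPM in endometrium libraries, with a log2 fold change of -2.28 ± 0.23 (adjusted p = 4.67e-10). Neither SLC16A13 nor SLC16A6 had any overlap between the regions.

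The feature of SLC16A14 was almost absent from the ampulla libraries, with 3 counts in 2 of 10 libraries, both contralateral. The endometrium had 1641 counts, present in 24 of 24 libraries, at 1.06 to 6.71 CPM. The ratio of count rates, ampulla over endometrium, was 0.00545, with an exact interval of 0.00112 to 0.0159 that covers counting error only. The fitted log2 fold change of -7.48 ± 0.46 (adjusted p = 3.47e-14) depends on the prior count for so few counts. SLC16A5 rose by 1.28 ± 0.36 on the log2 scale (adjusted p = 0.00257), with 1.88 ± 0.858 CPM in the ampulla, against 0.711 ± 0.131 CPM in the endometrium, in 4 of 5 heifers. Without heifer 10882 it stood at 0.84 and did not pass the test (adjusted p = 0.0793). SLC16A9, a carnitine carrier, had 2 counts in the ampulla and 40 in the endometrium and was not tested.

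**Figure D3:**
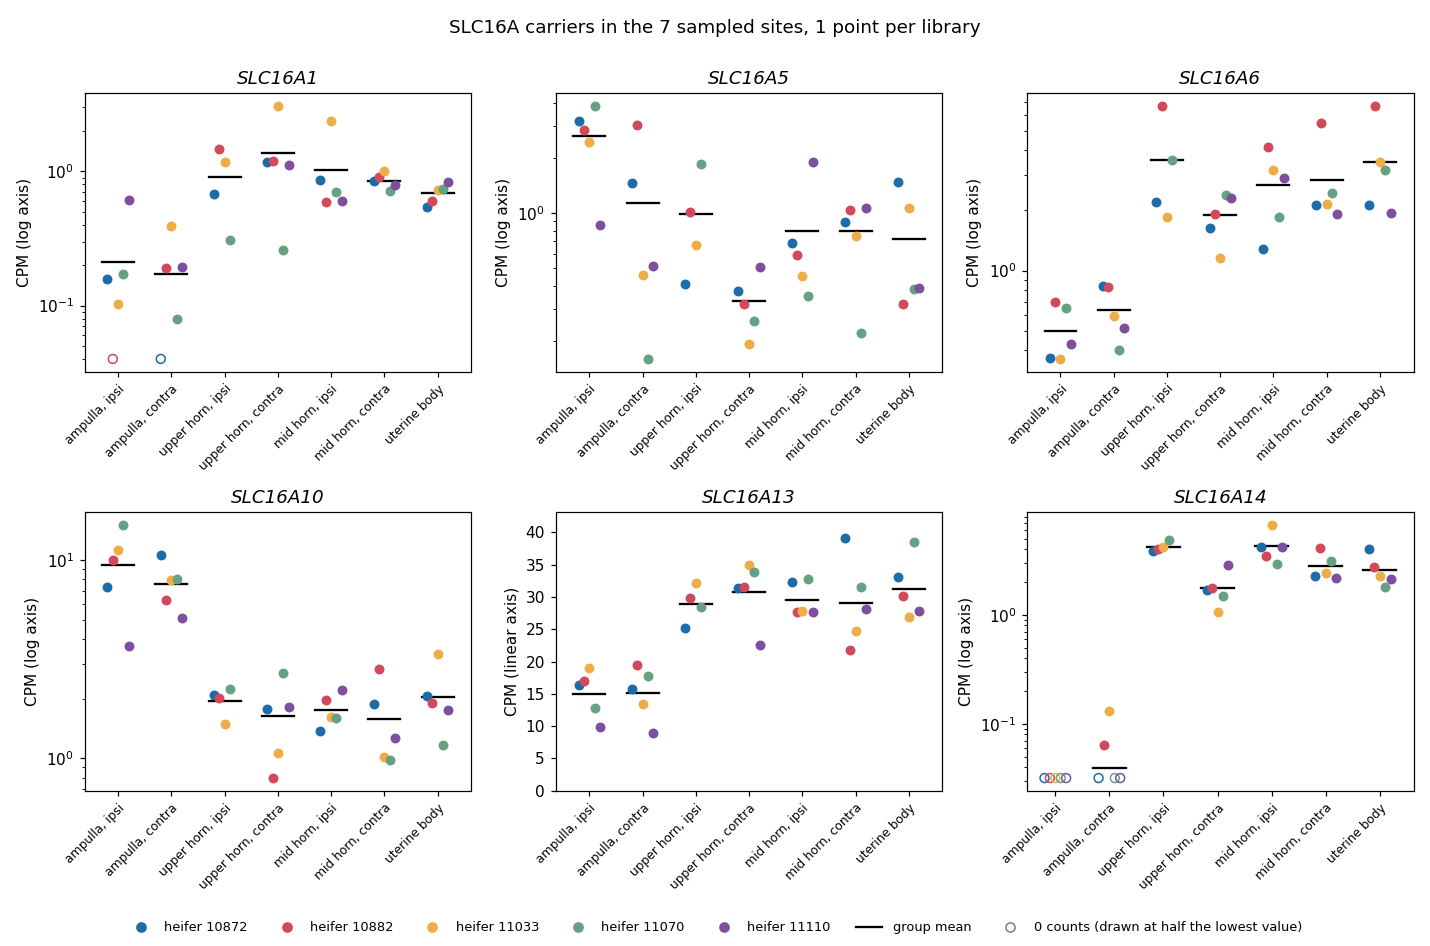
Level in CPM of 6 SLC16A carriers in the 7 sampled sites, with 1 point per library coloured by heifer and the bar at the group mean; open circles are libraries at 0 counts. SLC16A13, SLC16A6 and SLC16A14 lie lower in both ampulla groups, where SLC16A6 has 0.362 to 0.837 CPM, and SLC16A10 lies higher at 3.69 to 15 CPM.

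The side of ovulation was compared next, within heifers. In the ampulla, the upper horn and the mid horn, 0 of 23 carriers passed edgeR, where 0.0174%, 0.0058% and 0% of all features did. At an unadjusted p under 0.05 there were 4, 6 and 1 carriers, or 17.4%, 26.1% and 4.35% of those tested, where 7.25%, 6.89% and 2.98% of all features passed that level. The DESeq2 Wald test called 1, 0 and 0. The carriers named in the next sentences were chosen after their values were seen, and none of them passed edgeR.

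SLC2A4 came closest to the threshold. In the ipsilateral ampulla it stood at 6.63, 6.35, 9.78, 1.95 and 0.985 CPM in heifers 10872, 10882, 11033, 11070 and 11110, and in the contralateral ampulla at 1.41, 2.09, 1.11, 0.959 and 1.03 CPM. The ipsilateral value was the higher in 4 of 5 heifers, with a difference under 1 CPM in heifers 11070 and 11110. The log2 fold change was 1.89 ± 0.39 (edgeR adjusted p = 0.0824), while DESeq2 called it (adjusted p = 0.00502) and edgeR did so without heifer 11110 (adjusted p = 0.0292). Without the 3 doubted libraries the adjusted p was 0.179. The test of whether the side effect differed between ampulla and horn gave 1.70 ± 0.47 for SLC2A4 (adjusted p = 0.684). In that interaction test 0 of 23 carriers passed edgeR and 0% of all features did, with 0 carriers called by DESeq2. At an unadjusted p under 0.05 it had 2 carriers, or 8.7%, where 5.32% of all features passed.

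SLC2A10 had 20.9, 15, 25, 5.54 and 2.52 CPM in the ipsilateral ampulla and 9.62, 9.07, 5.83, 0.32 and 0.841 CPM in the contralateral ampulla, heifers in the order above. The ipsilateral side was higher in all 5 heifers, but the groups overlapped, and heifers 11070 and 11110 were low on both sides. The log2 fold change was 1.45 ± 0.59 (edgeR adjusted p = 0.628), and 1.11 without the 3 doubted libraries, of which the contralateral ampulla of heifer 11070 is one. For SLC5A1, 78.6 ± 31.7 CPM in the ipsilateral ampulla and 47.1 ± 28.3 CPM in the contralateral ampulla gave 0.71 ± 0.70 (adjusted p = 0.786), and 0.42 without the 3 doubted libraries. Beside these values, secretory markers summed to 559 to 2748 CPM in the ipsilateral ampulla and 397 to 2400 CPM in the contralateral ampulla, and ciliated markers to 2864 to 4567 CPM and 3537 to 4767 CPM on these sides; their part was not tested. SLC2A1 was at 277 ± 40.1 CPM in the ipsilateral ampulla and 269 ± 44.5 CPM in the contralateral ampulla (n = 5 each).

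In the upper horn, SLC16A14 had 3.84, 4.03, 4.22 and 4.89 CPM in the ipsilateral libraries of heifers 10872, 10882, 11033 and 11070. The contralateral libraries held 1.68, 1.75, 1.06, 1.48 and 2.88 CPM, the last from heifer 11110, and so did not overlap with them. The log2 fold change was 1.26 ± 0.42 (edgeR adjusted p = 0.696). Its lowest library, the contralateral one of heifer 11033, is among the 3 doubted ones, without which the difference was 1.09. SLC2A3 had 175 ± 172 CPM in the ipsilateral upper horn and 42.2 ± 14.3 CPM in the contralateral upper horn, where its highest library held 66.7 CPM. That difference of 1.58 ± 0.45 (edgeR adjusted p = 0.528) came with high values in heifers 10882 and 11070 alone, and it was 0.95 without heifer 10882 and 1.81 without the 3 doubted libraries. Smooth muscle markers summed to 584 to 3572 CPM in the ipsilateral upper horn and 231 to 1204 CPM in the contralateral upper horn, and their part in these differences was not tested. SLC2A13 (7.56 ± 1.5 CPM ipsilateral and 3.18 ± 1.7 CPM contralateral) and SLC5A11 (0.583 ± 0.165 CPM ipsilateral and 1.15 ± 0.177 CPM contralateral) also did not overlap between the upper horns, at log2 fold changes of 1.14 ± 0.47 and -1.03 ± 0.42. Without the 3 doubted libraries these were 0.89 and -0.99. Neither SLC2A13 nor SLC5A11 passed edgeR (adjusted p = 0.706 for each). The share of all features without overlap between the upper horns is not given here, so the lack of overlap cannot be weighed against it. In the mid horn SLC16A14 was at 4.28 ± 1.46 CPM ipsilateral and 2.83 ± 0.824 CPM contralateral, higher in 3 of 5 heifers.

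Position along the uterus gave no called carrier either. Of 23 tested, 0 passed edgeR for the upper horn against the mid horn (0.0174% of all features did), for the upper horn against the body (0.0232%) and for the mid horn against the body (4.45%). The last share was of 767 features, and 1 feature was called without the contralateral mid horn library of heifer 10882. At an unadjusted p under 0.05 there were 1, 1 and 2 carriers (4.35%, 4.35% and 8.7%), where 6.08%, 11.2% and 28% of all features passed, and DESeq2 called 0 carriers in each. SLC2A1 averaged 180 ± 16.3 CPM in the upper horn, 184 ± 18.9 CPM in the mid horn and 152 ± 30.8 CPM in the body. SLC5A3 averaged 78 ± 23.2 CPM in the upper horn, 78.6 ± 23.3 CPM in the mid horn and 81.1 ± 28.9 CPM in the body. SLC2A4 averaged 12.4 ± 2.82 CPM in the upper horn, 10.4 ± 1.63 CPM in the mid horn and 14.5 ± 3.7 CPM in the body. SLC2A3 averaged 98 ± 76.1 CPM in the upper horn, 78.6 ± 39.1 CPM in the mid horn and 100 ± 66.8 CPM in the body. SLC5A1 averaged 0.888 ± 0.362 CPM in the upper horn, 3.63 ± 4.54 CPM in the mid horn and 0.943 ± 0.319 CPM in the body, where the mid horn includes the library with oviduct transcripts at 22.3 CPM. The spread between heifers was larger than the differences between these sites for SLC5A3 and SLC2A3.

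The enzymes that use or release the transported sugars were taken from lists of pathway genes, compared between ampulla and endometrium with the same test. The marker sums of the regions given above stand beside these genes too, and their part was not tested. For glycolysis and the handling of pyruvate and lactate, 12 of 25 tested genes rose, 3 fell and 10 did not pass. These counts, and those of the lists that follow, stand beside the shares over all features, of which 64.9% passed the test, 29.4% having risen and 35.6% having fallen. The risers included GAPDH, a glycolytic dehydrogenase, at 1.66 ± 0.14 (2852 ± 457 CPM in the ampulla, against 907 ± 105 CPM in the endometrium), TPI1 at 0.81 ± 0.14, GPI at 0.72 ± 0.10 and DLAT, a subunit of pyruvate dehydrogenase, at 0.78 ± 0.10. LDHD, which oxidises D-lactate, rose by 2.54 ± 0.42, with 1.22 ± 0.798 CPM in the ampulla, against 0.199 ± 0.0863 CPM in the endometrium. PDK4, which inhibits pyruvate dehydrogenase, fell to 26.7 ± 8.34 CPM in the ampulla, against 180 ± 98.9 CPM in the endometrium, with a log2 fold change of -2.55 ± 0.25. The features of the glycolytic enzymes PKM and ENO2, at or below 2.88 CPM on average in either region, also fell, at -1.88 ± 0.38 and -2.97 ± 0.78. Those of HK1, ALDOA and LDHA averaged at most 0.319 CPM in either region and did not pass. As for the carriers, 1 feature stands for each enzyme, so such low values do not measure the gene's whole output. The counts of risers and fallers include these features. The list's median log2 fold change was 0.40, against -0.18 over all features.

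Fructose-1,6-bisphosphatases act in the reverse direction of glycolysis, and both rose in the ampulla. FBP1 was at 50.4 ± 12.3 CPM in the ampulla, against 2.09 ± 0.904 CPM in the endometrium, with a log2 fold change of 4.81 ± 0.30 (adjusted p = 4.68e-15). FBP2 was at 34.5 ± 4.02 CPM in the ampulla, against 5.44 ± 2.22 CPM in the endometrium, at 2.78 ± 0.20 (adjusted p = 2.24e-13). The other 3 tested genes of gluconeogenesis, PCK1, PCK2 and G6PC3, did not pass. Of 8 tested glycogen genes 6 fell and 0 rose, where 35.6% of all features fell and 29.4% rose. Glycogen synthase GYS1 was at -0.31 ± 0.12 and glycogen phosphorylase PYGB at -0.39 ± 0.10. The remaining fallers, GYS2, UGP2, PYGM and GYG2, averaged at most 2.03 CPM in either region. Such low values of 1 feature do not measure a gene's whole output. Among the partners of the carriers, BSG, the chaperone that brings MCT1 and MCT4 to the membrane, rose by 0.80 ± 0.12 (adjusted p = 1.47e-06, 2027 ± 449 CPM in the ampulla, against 1163 ± 237 CPM in the endometrium). EMB, the chaperone of MCT2, rose by 0.43 ± 0.19 (adjusted p = 0.0476, 4 of 5 heifers). The scaffold protein PDZK1 and the potassium channel KCNQ1 fell by 1.89 ± 0.28 and 1.14 ± 0.31. PDZK1 was at 2.91 ± 1.32 CPM in the ampulla, against 11.4 ± 7.1 CPM in the endometrium. KCNQ1 was low in both, at 0.789 ± 0.357 and 1.67 ± 0.478 CPM. TXNIP, which promotes the removal of GLUT1 from the membrane, had -0.20 ± 0.12 and did not pass. Of 6 tested partners, 2 rose, 2 fell and 2 did not pass, so the share called was near the 64.9% over all features.

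**Figure D4:**
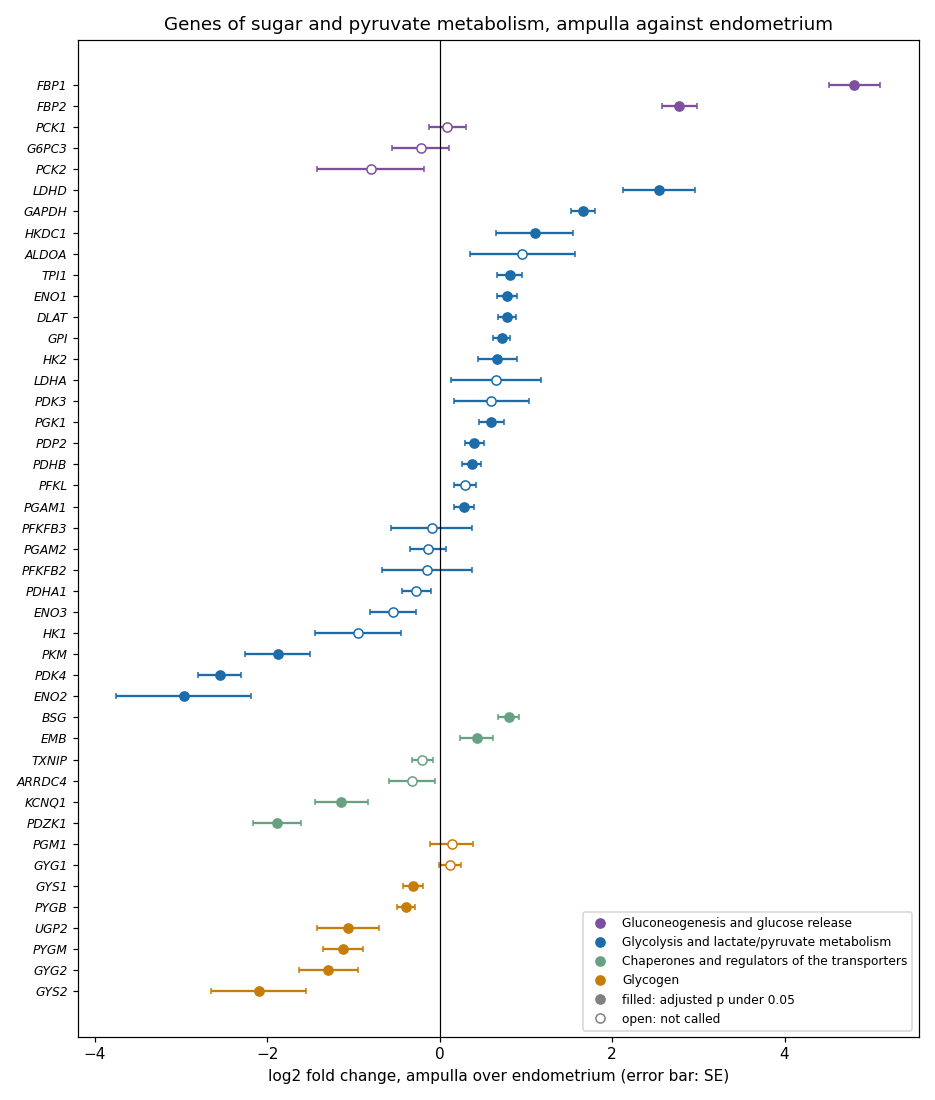
Log2 fold change, ampulla over endometrium, of the tested genes of 4 lists on sugar and pyruvate metabolism, with the SE as the bar (n = 5 heifers) and filled points for an adjusted p under 0.05. FBP1 at 4.81 and FBP2 at 2.78 lie furthest toward the ampulla, and 6 of 8 glycogen genes lie below 0. Of these, GYS2, UGP2, PYGM and GYG2 averaged at most 2.03 CPM in either region.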

How the data were processed

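The lining of the ampulla, the uterine horns and the uterine body was profiled by RNA sequencing in 34 libraries from 5 heifers. Tissue was homogenised with beads, total RNA was purified on microkit columns, and the library kit was a strand-specific one, per the labels' protocols. The authors deposited read counts per annotated feature, whole numbers that were not normalised. Per the submitters' processing notes, the tools were cutadapt, HTSeq, SAMtools and STAR 2.7.9a, with no step named for any of them. The build, the annotation and the settings for strand and read assignment were not given in the sources used here. Overlapping or antisense genes and near-identical copies are therefore uncertain.

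Of 38568 features, 26092 were matched to 21284 genes by RefSeq gene names (assembly ARS-UCD2.0), used for names and neighbours only, and they held 95.3% of counts. CPM, the tests and the intervals were computed here in R 4.3.3 with edgeR 4.0.16 (TMM, filterByExpr with a minimum count of 10, robust dispersions, quasi-likelihood F test) and DESeq2 1.42.0 as an alternative. Group and heifer were terms and all libraries entered each of 8 contrasts. The fit was tried on simulated data for the ampulla against the endometrium (15436 features). It recovered 97.9% of features changed by -1 on the log2 scale, 95.1% of those changed by 1 and 100% of those changed by -2 or 2. There were 8 false calls among unchanged features. Only a small share of features was changed, none with low counts, with the same spread for all and no differences between heifers. These rates therefore do not cover carriers with low counts. Heifer numbers in the labels pair the sites of an animal, hence the block, and deviations from group means correlated with a median of 0.207 over 99 pairs within heifers and -0.0539 over 396 pairs of different heifers and groups. No same-group pair of 66 agreed within sampling noise (chi-square per feature of at least 44.8).

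The carriers, the gene lists and the naming rule were chosen with earlier results of these data known. Carriers with an adjusted p under 0.05 and an absolute log2 fold change of at least 1 were given full statistics, and the others their level or fold change. Alternatives left out the heifer block, the filter, each heifer or the 3 doubted libraries, used DESeq2 size factors or its Wald test, or summed a gene's features, and 1 was added after seeing the data, which left out the mid horn library with oviduct transcripts alone. Genes with no or too few counts were not tested. Some tested genes are counted in the totals but not reported here by name.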

Additional observations from a re-analysis of the deposited data

Results flagged for a closer look

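In 20 of 160 combinations of a tested gene and a site group, 1 heifer's CPM stood apart from the other libraries of the group by the Dixon criterion, which flags by chance about 1 group in 20. No explanation was tested for any of them.

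In the contralateral mid uterine horn of heifer 10882, the library with oviduct transcripts, SLC5A1 was at 22.3 CPM against 3.41 at most in the other heifers. In the same library SLC2A8 was at 43.4, SLC2A11 at 0.648 and SLC16A6 at 5.49 CPM, against 23.8, 0.178 and 2.45 CPM in the nearest library of the group. SLC5A11 was low in that heifer's ipsilateral upper horn, at 0.336 CPM.

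Heifer 11110 stood apart in both mid horns. SLC5A5 was at 6.16 CPM on the ipsilateral and 4.72 CPM on the contralateral side, against 1.24 and 0.801 CPM in the nearest heifer. SLC5A8 was at 7.62 and 5.65 CPM on these sides, against 1.26 and 1.02 CPM. In the ipsilateral mid horn it also had SLC5A1 at 3.71 and SLC16A5 at 1.9 CPM, in the contralateral mid horn SLC2A4 at 13.6 CPM, and in the ipsilateral ampulla SLC16A1 at 0.616 CPM.

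In heifer 11070, SLC2A1 was high in the ipsilateral and contralateral upper horn, at 202 and 214 CPM, and SLC2A13 was low in the ipsilateral mid horn, at 3.66 CPM. In heifer 11033, SLC5A10 was high in the contralateral upper horn (2.13 CPM, in a library with few features) and the uterine body (1.39 CPM), and SLC16A1 in the ipsilateral mid horn (2.37 CPM). In heifer 10872, SLC2A13 was high in the uterine body, at 7.21 CPM.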

How the results depend on the processing

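Of 288 values of the 24 tested genes recomputed for the ampulla against the endometrium under 12 alternatives, 273 kept their direction and their side of the threshold, 4 kept the direction but lost the call and 11 reversed. Of the 14 called carriers, 13 were called under all 12 alternatives and SLC16A5 under 11. SLC2A4RG lost its call with no filter (-0.36) and without heifers 11033 or 11070 (-0.24 and -0.29). The reversals were of carriers that were not called: with single heifers left out SLC16A8 ran from -0.05 to 0.38, SLC2A10 from -0.30 to 0.53, SLC2A12 from -0.31 to 0.19, SLC2A13 from -0.37 to 0.07, SLC5A3 from -0.07 to 0.31 and SLC5A8 from -0.72 to 0.07, and SLC2A9 reached 0.65 with its features summed.

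Without the heifer block, features called moved to 1 (from 3) for the side in the ampulla, 0 (from 1) for the side in the upper horn, 1 (from 3) for the upper against the mid horn and 1 (from 767) for the mid horn against the body; no carrier changed its call. The DESeq2 Wald test called 17, 22, 21, 23, 12, 2714 and 7 features for the side in the ampulla, the upper horn and the mid horn, the upper horn against mid horn and body, the mid horn against the body and the interaction, and 1 carrier (SLC2A4) for the side in the ampulla. With no filter these were 150, 173, 140, 207, 150, 2057 and 116, and 2 carriers for the side in the ampulla and 1 each for the side in the upper and mid horn, the upper against the mid horn, the mid horn against the body and the interaction. Leaving out each heifer gave 0 to 4, 0 to 8, 0 to 2, 2 to 4 and 0 to 1835 features for the side in the ampulla and upper horn, the upper horn against mid horn and body, and the mid horn against the body, and 0 to 1 carriers for the side in the ampulla. Without the 3 doubted libraries there were 0 for the side in the upper horn and 1228 for the mid horn against the body, which DESeq2 size factors put at 1276. The count of 767 fell to 1 without the contralateral mid horn library of heifer 10882 alone, an alternative chosen after seeing the data. The cause of these shifts was not tested. The 9 carriers with a feature but too few counts could not be tested at this depth.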

Other observations

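SORD, which converts sorbitol to fructose, was the only tested gene of the polyol list, at 6.78 ± 4.35 CPM in the ampulla, against 2.18 ± 1.02 CPM in the endometrium (log2 fold change 1.70 ± 0.29, adjusted p = 5.19e-06, higher in 4 of 5 heifers).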
